A study of Mus musculus with 16 samples.

Results

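The genes described here encode the proteins of the cytosolic ribosome, and their messenger RNAs were followed through 4 conditions of cultured mouse cardiac fibroblasts. Members were chosen by symbol alone. A member carried the symbol Rpl or Rps with a number and at most 1 further letter, or was Rplp0, Rplp1, Rplp2 or Rpsa. Kinases of the Rps6k family and genes marked as pseudogenes by -ps were left out. The rule found 83 of 55414 genes, 51 of the large subunit and 32 of the small. Enough reads for a test were present for 81 of the 83, among 15285 genes tested. Rpl10l, a testis paralog of Rpl10, had 0 counts in all 16 libraries, and Rpl3l, the striated-muscle paralog of Rpl3, had at most 5. Rps4l, Rpl6l and Rpl32l met the rule but are annotated as processed pseudogenes, and are pointed out where they appear.

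Cytosolic ribosomes are built from a small subunit, which reads the messenger RNA, and a large subunit, which joins amino acids. Each carries ribosomal RNA and a set of proteins, most of them needed in equal number. The acidic stalk proteins Rplp1 and Rplp2 are exceptions, being present in more than a single copy. Most of their messenger RNAs belong to the 5' terminal oligopyrimidine (TOP) class, which begins with a cytosine followed by a run of pyrimidines and whose translation is governed by mTOR through the RNA-binding protein Larp1. Myc raises transcription of ribosomal protein genes and of the factors that assemble ribosomes. In fibroblasts, transforming growth factor beta (TGF-beta) drives the change to a contractile, matrix-secreting myofibroblast, a state with heavy protein output.

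Cardiac fibroblasts at passage 2 were deprived of serum for 24 h and infected for 5 h with an adenovirus carrying Cre recombinase, meant to delete exon 2 of Has2 (hyaluronan synthase 2), or carrying green fluorescent protein (GFP) as the control. They then received fresh medium with or without TGF-beta, and RNA was taken after 48 h. The protocol gives 20 ng/mL for basic fibroblast growth factor and TGF-beta in a single phrase, so whether cells without TGF-beta received the former is not stated. It describes Has2 fl/fl mice, whereas the genotype field says Wild Type C57BL/6J, and the age of the mice is not given. Virus and factor together define the groups, each of 4 libraries: GFP and Cre cells, and the same cells given TGF-beta. Replicates 1 to 4 are 4 cell preparations, each contributing 1 library to every group. Whether a preparation pooled hearts is not stated, so the p-values speak for the spread among these 4 only.

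Libraries held 17.9 to 48.7 M counts. Has2 itself was at 15.2 to 22.9 counts per 1 M of the library total (CPM) in GFP cells and 13.5 to 16.6 in Cre cells. With TGF-beta it was at 8.60 to 22.1 in GFP cells and 10.5 to 23.8 in Cre cells. The ranges overlapped. Within preparations Has2 was lower in Cre than in GFP cells in 4 of 4 where no TGF-beta was given, and in 2 of 4 where it was. Counts over the whole gene do not show whether its exon 2 was deleted. Summed fibroblast markers stood at 28698 to 53111 CPM in GFP cells, against 588 to 1251 for macrophage markers and 5.88 to 16.6 for cardiomyocyte markers, of which Nppa was at 0 in every library. Preparation 4 stood apart: its 10 most abundant genes took 6.88% to 7.34% of counts, against 10.3% to 12.1% in the others. Cre with TGF-beta replicates 2 and 4 had the steepest downward slopes against transcript length, 0.0863 and 0.217 log2 units for each doubling of length. Other libraries sloped upward, by 0.0969 in GFP replicate 3 and 0.0739 in Cre with TGF-beta replicate 3, so in size only replicate 4 stood apart. Medians over the members, and the values of Rpl41, Rpl6l, Rps24 and Rpl37a, are also given with Cre with TGF-beta replicate 2 or 4 left out. In these bulk samples, fewer cells of a type and less RNA per cell cannot be told apart.

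Ribosomal protein genes supplied between 3.78% and 7.24% of all counts. In GFP cells their share was 3.98%, 4.39%, 3.78% and 4.40% in preparations 1 to 4. In Cre cells it was 4.76%, 4.49%, 4.13% and 5.28%. With TGF-beta it was 4.32%, 4.55%, 4.23% and 5.52% in GFP cells, and 4.55%, 5.67%, 4.06% and 7.24% in Cre cells. Every preparation had a higher share in Cre than in GFP cells without TGF-beta, and a higher share with TGF-beta than without it in GFP cells. In Cre cells TGF-beta went with a higher share in preparations 2 and 4 and a lower one in preparations 1 and 3. Group means were 4.14% ± 0.305, 4.66% ± 0.482, 4.66% ± 0.593 and 5.38% ± 1.41 (SD, n = 4), in the order just given. The SD of the last group was as large as the gap between the group means, and without preparation 4 its mean was 4.76%. Reads given to 299 ribosomal protein pseudogenes outside the rule amounted to 0.852 to 1.21 per 100 member counts.

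**Figure D1:**
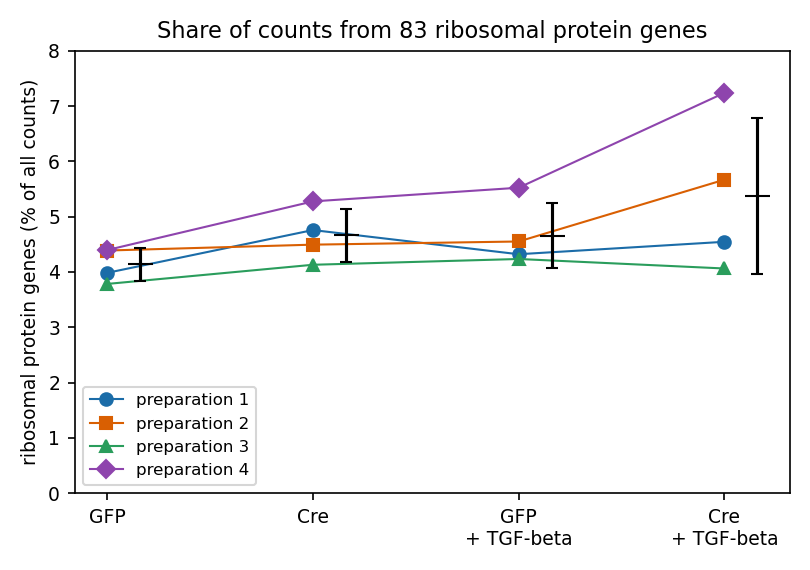
Share of all counts held by the 83 ribosomal protein genes, in percent, for each of the 16 libraries. Coloured lines join the libraries of a preparation, and black bars give the mean and SD of the 4 libraries in a group. Cre with TGF-beta spreads the widest, from 4.06% in preparation 3 to 7.24% in preparation 4.

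Levels of single members are given as CPM scaled by the trimmed mean of M values (TMM), which corrects for differences in library composition. Rplp0, the base of the stalk that recruits elongation factors, was the most abundant, at 2043 ± 157 CPM in GFP cells (SD, n = 4). Rpsa, also known as the laminin receptor, followed at 1458 ± 105, then Rps2, which lies by the messenger RNA entry channel, at 1312 ± 118. Rpl4, which lines the exit tunnel for the new protein, was at 1208 ± 35.6, and Rplp1, an acidic stalk protein, at 1133 ± 106. Between genes, levels are comparable only per length. Averaged over all libraries, Rplp1 led at 2713 CPM per kb of transcript, before Rps12 at 1864 and Rplp0 at 1717. The messenger RNA of Rpl30 stood at 141 CPM per kb and that of Rpl5, which binds the 5S ribosomal RNA, at 304. These per-length values depend on the transcript assumed for each gene, here 570 bases for Rpl30 and 2045 for Rpl5.

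The lowest tested members were minor paralogs and annotated pseudogenes. Rpl39l, a paralog of the exit-tunnel protein Rpl39, was at 0.451, 1.04, 0.0930 and 0.304 CPM across the GFP libraries, where the smallest count was 2. Rpl32l was at 1.35, 1.76, 2.09 and 1.62 CPM and Rpl6l at 7.59, 7.56, 5.81 and 6.28. Rps4l was higher, at 28.5, 27.6, 22.5 and 25.5, against 819 to 839.7 for Rps4x, the gene on the X chromosome that supplies this subunit. Reads from Rpl32, Rpl6 or Rps4x that were placed on these copies could not be separated from their own, so their values are uncertain. Rps27l, an expressed paralog of Rps27 that p53 can induce, was at 105, 103, 86.5 and 107 CPM, with Rps27 at 284, 340.1, 270.5 and 251.

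Members moved together from library to library. Within groups, the median correlation between pairs of members was 0.870 over 3240 pairs and 16 libraries, and 91.4% of the pairs were above 0.5. These points share library, depth and preparation, and the value is given as a description only. It was not computed for other genes, nor after length and GC trends were removed. Transcripts of the tested members were also short, with a median of 681 bases against 2596 for all genes with a length, and 64 of the 81 were under 1000 bases. Each comparison is therefore also given from fits in which every library's trend on transcript length and GC content was removed.

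The response to TGF-beta was measured first in control cells, those with the GFP virus. The median log2 difference over the 81 tested members was 0.24, against -0.02 over all 15285 genes, and 78 of the 81 were above 0. Rps2, Rpl4, Rpl8, Rpl14, Rpl15, Rpl13a, Rps3 and Rps25 rose at an adjusted p under 0.05 (edgeR's quasi-likelihood test, Benjamini-Hochberg over all genes). These 8 made up 9.88% of the tested members, while 13.8% of all genes were called higher, so the share called was not above that of genes in general. None was called lower, against 15.3% of all genes. With the preparation as a block, which compares libraries within each cell preparation, 39 members rose (48.1%), against 22.6% of all genes, and again 0 fell, against 26.5%. With block and trend removal together 56 rose (69.1%), against 34.3% of all genes. Trend removal moved the median of all genes to 0.09 and left that of the members at 0.21, still above it.

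Rps2 carried the clearest change. Its level was 1175, 1426, 1254 and 1394 CPM in the 4 GFP libraries and 1889, 1802, 1834 and 2024 with TGF-beta. The groups did not overlap, and every preparation was higher. The log2 difference was 0.52 ± 0.13 (SE), with an adjusted p of 0.00585, and 0.52 ± 0.09 with the block (adjusted p = 0.000169). Rpl4, of the exit tunnel, was at 1219.9, 1246, 1205 and 1161 CPM without and 1499, 1526, 1431 and 1468 CPM with the factor. Its 4 GFP libraries lay within a narrow range, and it rose by 0.29 ± 0.09 on the log2 scale (adjusted p = 0.019). Rpl8, which sits beside the peptidyl transferase centre, was at 663, 799, 691 and 666 CPM in GFP cells. With TGF-beta it was at 888, 969, 867 and 1045, again with no overlap, a log2 difference of 0.42 ± 0.14 (adjusted p = 0.0381).

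Of the other large-subunit members called, Rpl15 was at 308 to 358 CPM without and 364 to 431 CPM with TGF-beta, and Rpl14 at 504 to 576 and 663 to 778. Rpl13a, known also for a part outside the ribosome in silencing inflammatory messenger RNAs, was at 308 to 399 and 409 to 506 CPM. Among small-subunit members, Rps3, at the messenger RNA entry site and with a known role in DNA repair, was at 766 to 925 and 966 to 1104 CPM. Rps25, which some viral messenger RNAs need to start translation, was at 328 to 393 and 413 to 473 CPM. None of these 5 members overlapped between groups, and their log2 differences ran from 0.30 to 0.41. Over all members, 30 of 81 were higher without overlap, against 15.1% of all genes, and 72 of 81 were higher in 4 of 4 preparations, against 28.2%.

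**Figure D2:**
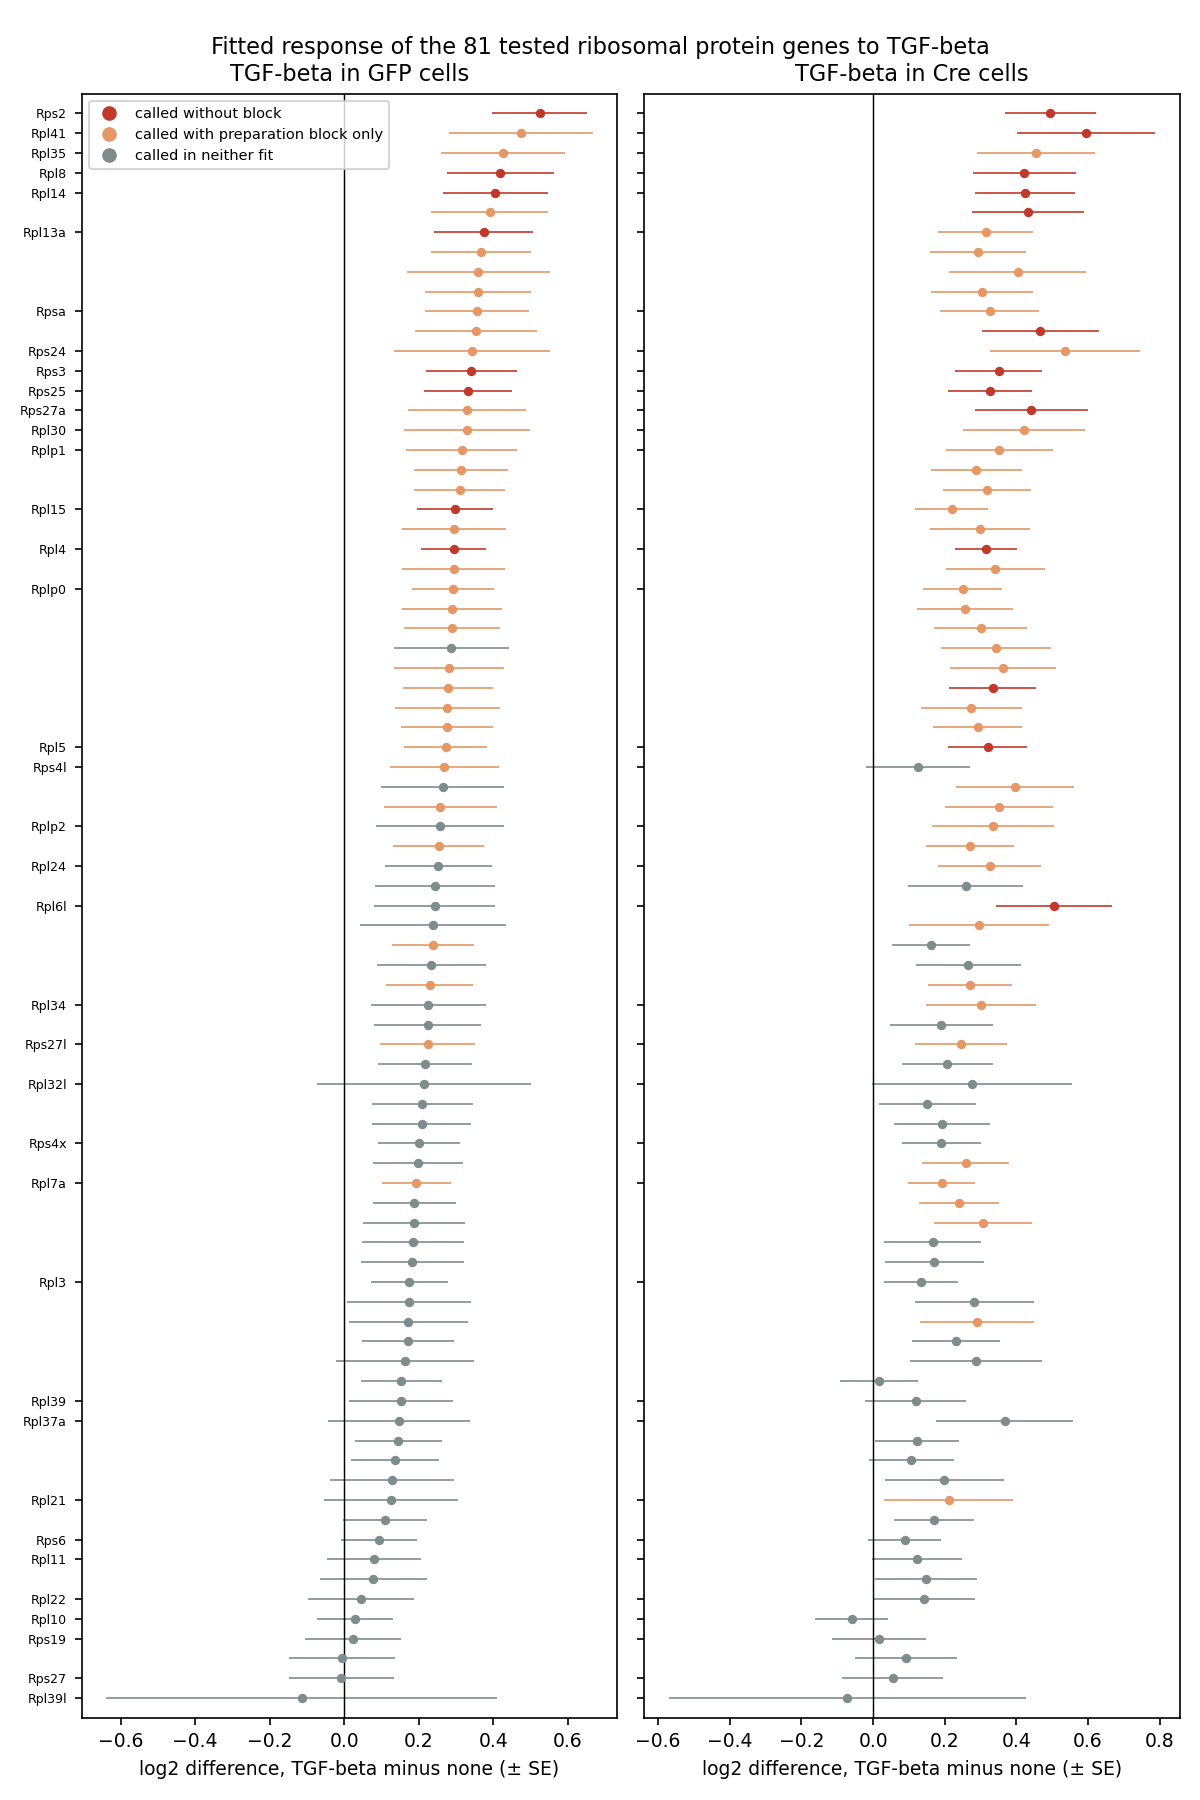
Log2 difference with TGF-beta for the 81 tested ribosomal protein genes, with SE, in GFP cells (left) and Cre cells (right), ordered by the value in GFP cells, with symbols beside members picked by the naming rule. Red points passed the test without the block, orange points with the preparation block only, and grey points in neither; most values lie to the right of 0, and Rpl39l has the widest error.

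The stalk of the large subunit, where elongation factors dock, lay close to the median of the members. Rplp0 was at 1997, 2266, 2013 and 1898 CPM in GFP cells and 2466, 2655, 2289 and 2588 with TGF-beta. The groups did not overlap, yet without the block the difference of 0.29 ± 0.11 missed the threshold (adjusted p = 0.0596), and with the block it passed (adjusted p = 0.00901). Rplp1 (0.32 ± 0.15) and Rpl12 (0.29 ± 0.13) likewise passed with the block only. Rplp2 (0.26 ± 0.17) passed in neither. The 2 members of the 5S particle, which bind Mdm2 when ribosome assembly fails, differed in size. Rpl5 was at 525, 508, 508 and 577 CPM without and 641, 621, 629 and 666 CPM with TGF-beta, and passed with the block (adjusted p = 0.00853). Rpl11 was at 514, 581, 482 and 472 and 520.2, 568, 523 and 555 CPM, with overlapping groups and a log2 difference of 0.08 ± 0.12. Whether Rpl5 and Rpl11 differ from each other was not tested.

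Other members known for particular roles gave these values. Rpsa was at 1384 to 1614 CPM without and 1691 to 2016 CPM with the factor, and Rps27a, made as a fusion with ubiquitin, at 341 to 404 and 435 to 522. Neither overlapped, and each passed with the block only (adjusted p = 0.00702 and 0.0136). Rps4x did not overlap either, at 819 to 839.7 and 899 to 986 CPM, but passed neither with nor without the block (log2 difference 0.20 ± 0.11). Rpl3, at the peptidyl transferase centre (0.17 ± 0.10), Rpl39 of the exit tunnel (0.15 ± 0.14) and Rps6, the substrate of S6 kinase (0.09 ± 0.10), did not pass with or without it either. With block and trend removal together Rps4x and Rpl3 did pass (adjusted p = 0.00968 and 0.000278). In that fit 34.3% of all genes were called higher, and each library was re-centred as well. For Rps6 the log2 difference was above 0 in 4 of 4 preparations, from 542, 610.0, 549 and 527 to 582, 625, 557 and 614 CPM. Rps27l passed with the block (0.22 ± 0.08, adjusted p = 0.0358), whereas its paralog Rps27 did not (-0.01 ± 0.10, adjusted p = 0.948). The difference between the paralogs was not tested.

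The smallest values belonged to Rps27, Rps20, Rps19, Rpl10 and Rpl22, leaving aside the sparsely counted Rpl39l (-0.11 ± 0.53). Rps19, the first gene found mutated in Diamond-Blackfan anaemia, was at 467, 487, 439 and 445 CPM in GFP cells and 440.3, 488, 435 and 503 with TGF-beta, a log2 difference of 0.02 ± 0.13. The groups overlapped almost wholly, with 2 of 4 preparations higher. Rpl10, which joins the large subunit last in its maturation, was at 661, 729, 677 and 637 and 639, 749, 663 and 710.4 CPM (0.03 ± 0.10). Rpl22, which ribosomes can do without because of its paralog Rpl22l1, was at 292, 309, 263 and 276 and 282, 312, 272 and 309 CPM (0.04 ± 0.14). Rps20 (-0.01 ± 0.14) and Rps27 (-0.01 ± 0.14) lay at 0 within their error. Rps20 was named after its value was seen. A p that misses the threshold does not show that they were unaffected.

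Because TOP messenger RNAs are defined by their first bases, the sequence at the start site was read for members that were called with TGF-beta and for members with values near 0. Each window runs from 10 bases before to 20 bases from the RefSeq start on GRCm38.p6, 5' to 3' on the gene's strand, and capitals mark the longest run of a C followed by at least 4 pyrimidines. Members that passed in GFP cells come first and members with small values last:
Rps2 (chr17:24720053-24720082, plus strand): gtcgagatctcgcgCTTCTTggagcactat
Rpl14 (chr9:120571507-120571536, plus strand): ggCCCTCTCTCTTCTCgctgagcgccgcca
Rpl15 (chr14:18270967-18270996, minus strand): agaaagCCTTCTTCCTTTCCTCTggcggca
Rpl13a (chr7:45128726-45128755, minus strand): cctgcgacaagaCCTCCTCCTTTCCCaggc
Rpl4 (chr9:64173377-64173406, plus strand): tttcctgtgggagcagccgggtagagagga
Rps6 (chr4:86857348-86857377, minus strand): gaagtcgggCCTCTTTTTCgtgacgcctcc
Rps27 (chr3:90213629-90213658, minus strand): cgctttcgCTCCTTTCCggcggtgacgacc
Rps19 (chr7:24884582-24884611, plus strand): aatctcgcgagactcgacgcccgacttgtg
Of the 8 members called, 7 had a RefSeq entry, and 4 of the 7 hold a pyrimidine run of that length. Rpl4 does not, nor do Rps3 and Rps25, whose windows are not printed. Of the 4 members in the other set, Rps6 and Rps27 hold a run and Rps19 and Rpl22, the latter not printed, do not. The share of all genes with a run this short in such a window was not counted. Absence from these 30 bases says only that the letters are not in this window around the annotated start. RefSeq entries were found for 61 of the 83 members. Within 25 bases either side of the start, a C followed by at least 7 more pyrimidines on the gene's strand was present in 33 of the 61 (54.1%), against 17.7% of 27025 genes. The 33 had a median log2 difference with TGF-beta in GFP cells of 0.26, and the 26 tested members without the run 0.23. The motif CCGGAAGT, a core that ETS-family factors bind, searched on both strands of the 300 bases around the start, was present in 12 of the 61 (19.7%), against 4.31% of genes. A match is a description of letters, not a site in use.

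Several ribosomal protein genes serve as reference genes in quantitative PCR. In GFP cells Rplp0, Rpl13a, Rpl19, Rpl32 and Rps18 had log2 differences from 0.28 to 0.37 with TGF-beta, and all 5 were higher in 4 of 4 preparations. Without the block 1 of the 5 passed, against 13.8% of all genes called higher, and with it 5 of 5, against 22.6%. In Cre cells 0 of the 5 passed without the block, against 14% of all genes called higher, and 5 of 5 with it, against 25.2%. Of the 5, Rpl19, Rpl32 and Rps18 were named after their values were seen. Counts over the 5 therefore do not stand for ribosomal protein genes as a whole. Rpl19 was at 775, 935, 756 and 752 CPM in GFP cells and 966, 1088, 881 and 999.8 with TGF-beta. Rps18 was at 628, 762, 609 and 667 and 758, 862, 742 and 908 CPM. Of 14 reference genes from other families, 3 were called higher without the block (the cytoskeletal Actb, the cyclophilin Ppia and the transferrin receptor Tfrc), against 13.8% of all genes, and the median of the 14 was 0.11. The 14 did not all move upward, and the number called lower is not given here. Actb stood at 2045 to 3133 CPM without and 4710.0 to 5019.6 CPM with TGF-beta, a log2 difference of 0.88 ± 0.14 (adjusted p = 0.000268).

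TGF-beta in Cre cells gave the same comparison in separate libraries of the same 4 preparations. The members' median log2 difference was 0.28, against 0.02 over all genes, and 79 of 81 were above 0. Rps2, Rpl4, Rpl41, Rpl14, Rpl8, Rpl5, Rps3, Rpl38, Rps27a, Rps25, Rpl18 and Rps26 rose, as did the annotated pseudogene Rpl6l. These 13 of 81, against 14% of all genes called higher, became 49 with the block (60.5%, against 25.2%), and 51 with block and trend removal (63.0%, against 34.8%). No member fell in these fits, whereas 16.3% and 27.3% of all genes were called lower without and with the block. Rps2 was at 1358, 1428, 1342 and 1564 CPM in Cre cells and 1934, 1729, 1741 and 2619 with TGF-beta. It did not overlap between groups and rose by 0.50 ± 0.13 (log2 ± SE, adjusted p = 0.00823). Rpl41, the shortest ribosomal protein, was at 597, 618, 536 and 673 CPM without and 683, 1164, 608 and 1208 CPM with it. Preparations 2 and 4 held its high values, preparation 1 lay just above the Cre cells and preparation 3 among them, for a log2 difference of 0.60 ± 0.19 (adjusted p = 0.0292). Without Cre with TGF-beta replicate 2 it was 0.46 and without replicate 4 it was 0.43, and in neither case was it called (adjusted p = 0.0991 and 0.0930).

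That division ran through the family. By preparation the members' median difference was 0.03, 0.43, 0.03 and 0.53 in Cre cells, and 0.20, 0.18, 0.22 and 0.37 in GFP cells. Only 3 of 81 members were higher without overlap in Cre cells, against 12.5% of all genes, and 42 were higher in 4 of 4 preparations, against 25.5%. After the length and GC trends were removed, the medians in Cre cells were 0.11, 0.23, 0.14 and 0.30, beside 0.08, 0.07, 0.08 and 0.12 over all genes. In GFP cells they were 0.22, 0.14, 0.16 and 0.30, beside 0.10, 0.07, 0.08 and 0.12. The members' median thus stood above that of all genes in each of the 4 preparations in both kinds of cell. Leaving out Cre with TGF-beta replicate 2 lowered the median in Cre cells to 0.21 and the number called without the block to 2, and leaving out replicate 4 lowered them to 0.16 and 3, whereas leaving out replicate 3 raised them to 0.38 and 47. With the block the number ran from 11 without preparation 2 to 56 without preparation 3.

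**Figure D3:**
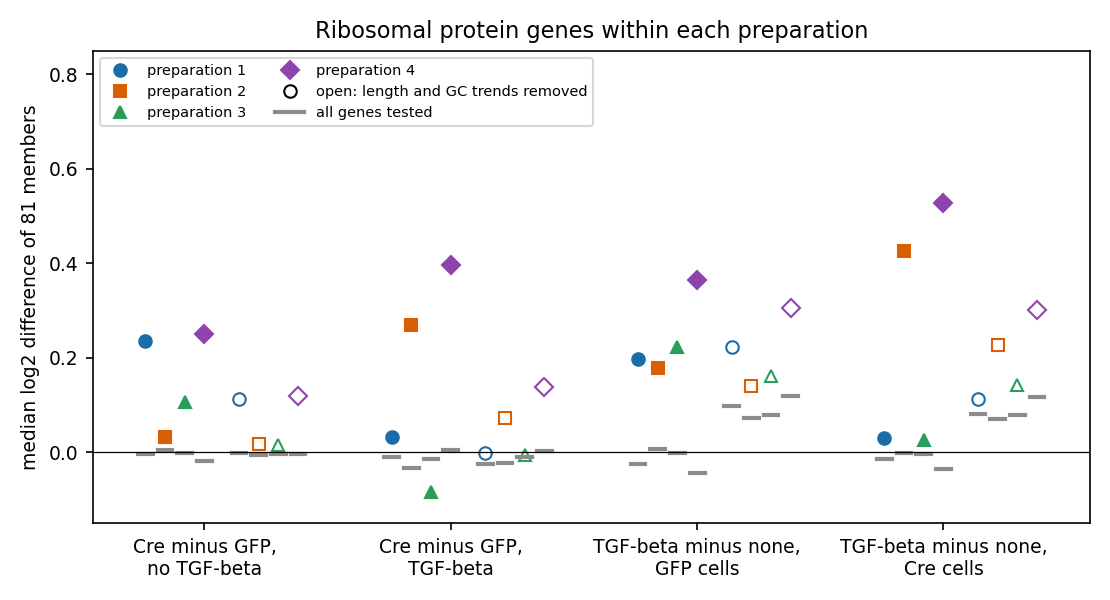
Median log2 difference of the 81 tested ribosomal protein genes within each preparation, for 4 comparisons. Filled symbols are values as measured, open symbols values after length and GC trends were removed, and grey bars the medians of all 15285 genes on the same scale. In Cre cells with TGF-beta, preparations 2 and 4 stand above the others before the trends are removed.

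In Cre cells the 5S particle again gave unequal values. Rpl5 rose by 0.32 ± 0.11 on the log2 scale (adjusted p = 0.0396), from 591, 539, 556 and 666 to 657, 787, 616 and 876 CPM. Rpl11 was at 589, 583, 535 and 562 and 537, 694, 482 and 757 CPM, overlapping, with a log2 difference of 0.12 ± 0.12. Rps27a rose by 0.44 ± 0.16 (adjusted p = 0.0455), from 419, 388, 391 and 490 to 448, 622, 443 and 779 CPM. Preparations 2 and 4 held its largest rises, and its value without those libraries is not given here. Rplp0 (0.25 ± 0.11), Rpsa (0.33 ± 0.14) and Rpl30 (0.42 ± 0.17) passed with the block only. Rps24, mutated in Diamond-Blackfan anaemia and spliced in several forms, passed with the block as well, and its range over Cre libraries with TGF-beta was wide, 626 to 1198 CPM. Its log2 difference of 0.54 was 0.34 without Cre with TGF-beta replicate 4. The low end again held Rpl10 (-0.06 ± 0.10), Rps19 (0.02 ± 0.13), Rps27 (0.05 ± 0.14) and Rps6 (0.09 ± 0.10). The annotated pseudogene Rpl6l was called (0.51 ± 0.16, adjusted p = 0.0277), at 8.85, 13.4, 7.47 and 10.2 CPM with TGF-beta against 6.35 to 7.65 without. Without Cre with TGF-beta replicate 2 it was at 0.33 and not called (adjusted p = 0.107). Its parent gene Rpl6 passed with the block only, at 0.29 ± 0.12.

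**Figure D4:**
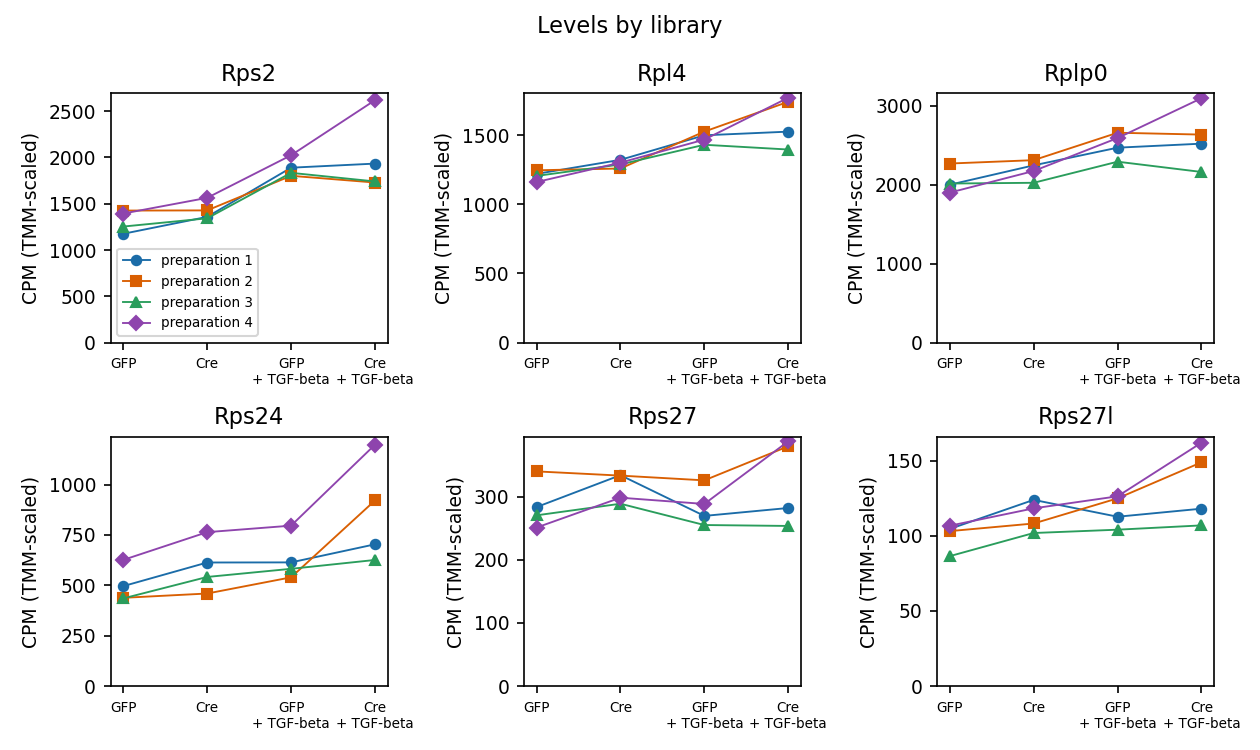
Level of 6 members in each library, in TMM-scaled CPM, with lines joining the libraries of a preparation. Rps2, Rpl4 and Rplp0 are higher with TGF-beta in every preparation, Rps24 spreads by preparation, and Rps27 and its paralog Rps27l are shown side by side.

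The 2 TGF-beta responses were compared directly. The difference of the responses, Cre minus GFP, had a median of 0.03 over the members (all genes -0.01) and ranged from -0.14 for Rps4l to 0.26 for Rpl6l, both annotated pseudogenes. In edgeR's test 0 of 81 members were called, as were 0% of all genes, with 0 members at an unadjusted p under 0.05. DESeq2 also called 0. Rpl37a (0.22 ± 0.27) and Rps24 (0.19 ± 0.29) had the largest positive values among members above 10 CPM, and Rps4l (-0.14 ± 0.21) lay at the other end. The SE of each was larger than the value. Without Cre with TGF-beta replicate 2 the value of Rpl37a was 0.0037, and without replicate 4 that of Rps24 was -0.0074. The members' median was -0.10 without Cre with TGF-beta replicate 4 and 0.13 without replicate 3, so its sign rested on single libraries.

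Cre against GFP without TGF-beta asked what went with the Cre virus. It shares its GFP libraries with the TGF-beta comparison in GFP cells. All 81 members had a log2 difference above 0, as did 48% of all genes, with a median of 0.15 against -0.01. The values ran from 0.04 for the pseudogene Rpl6l to 0.25 for Rps24. EdgeR called 0 members with or without the block, against 0.164% of all genes called higher and 0.00654% lower with it. At an unadjusted p under 0.05 there were 0 members in the unblocked fit, and DESeq2 called 0. Within preparations, 62 of 81 members were higher in 4 of 4, against 12.7% of all genes. After the trends on length and GC were removed this fell to 34 members, against 10.9% of all genes. The preparation medians were 0.23, 0.03, 0.11 and 0.25 as measured and 0.11, 0.02, 0.02 and 0.12 after removal, when the median of all genes was between -0.0066 and -0.0015. The Cre effect over 15259 genes was rank-correlated with transcript length (Spearman's rho -0.43), given as a description across genes.

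Rps24 was at 496, 438, 435 and 626 CPM in GFP cells and 613, 459, 541 and 764 in Cre cells. Each preparation was higher, by less than the preparations differed among themselves, and the log2 difference was 0.25 ± 0.21. Rpl21 (0.25 ± 0.18) and Rpl24, which bridges the subunits (0.24 ± 0.14), were next, and neither passed. Rpl34 (0.07 ± 0.15) and Rpl7a (0.08 ± 0.09) were the lowest among members above 10 CPM. Rplp0 was at 1997, 2266, 2013 and 1898 CPM in GFP and 2243, 2308, 2022 and 2171 in Cre cells, a difference of 0.10 ± 0.11. Its groups overlapped, and 2 of 81 members were higher without overlap, against 1.13% of all genes.

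With TGF-beta present, Cre against GFP cells gave a median of 0.18 over the members, against -0.0046 over all genes, with 79 above 0. EdgeR called 0 members with or without the block, against 0.0654% of all genes called higher with it. Without the block 2 members were at an unadjusted p under 0.05, and DESeq2 called 0. The preparations disagreed: their medians were 0.03, 0.27, -0.08 and 0.40, and 7 of 81 members were higher in 4 of 4, against 10.1% of all genes. After the trends were removed they were -0.0005, 0.07, -0.0065 and 0.14. Without Cre with TGF-beta replicate 4 the median was 0.06, and without replicate 3 it was 0.28. Rps24 again had the largest value (0.45 ± 0.21), from 614, 539, 582 and 796 CPM to 703, 921, 626 and 1198, followed by Rpl37a (0.38 ± 0.19). Without Cre with TGF-beta replicate 4 the value of Rps24 was 0.25, and without replicate 2 that of Rpl37a was 0.16. Rpl10 (-0.01 ± 0.10) lay at the low end.

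The machinery that makes and uses ribosomes was followed beside the proteins, from lists chosen with earlier results of these data known. Ribosome biogenesis factors, the nucleolar proteins that process ribosomal RNA and assemble subunits, had a median log2 difference of 0.68 with TGF-beta in GFP cells, and 40 of 55 rose without the block, against 13.8% of all genes. Rrp12 (1.07 ± 0.19, adjusted p = 0.000594), which helps export both subunits, had the smallest adjusted p among them. Bysl, needed for the small subunit, was at 26.5, 26.9, 29.6 and 39.1 CPM without and 49.7, 53.0, 53.2 and 69.2 with TGF-beta, with no overlap. The RNA polymerase I machinery, which transcribes ribosomal RNA, had a median of 0.31, and 6 of 14 rose. Among them were Cd3eap (1.19 ± 0.16), Polr1a (0.60 ± 0.12) and the initiation factor Rrn3 (0.43 ± 0.09). Mitochondrial ribosomal protein genes, which encode a separate ribosome, had a median of 0.31 with 19 of 78 called higher, Mrps10 (0.63 ± 0.11) and Mrpl20 (0.59 ± 0.11) among them. No gene of these 3 lists was called lower in GFP cells without the block, against 15.3% of all genes.

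More translation factors were called higher than lower. Of all genes 13.8% were called higher and 15.3% lower in this comparison. Of 36 initiation factors 14 rose and 1 fell, with a median of 0.34. Eif2b2 (0.67 ± 0.11) and Eif3l (0.42 ± 0.08) were among those that rose. Of 12 elongation and termination factors 4 rose, including Gspt1 (0.53 ± 0.11) and Eef1g (0.42 ± 0.10), and 1 fell. That was Eef1a2, the muscle and nerve form of elongation factor 1A, at 2.37, 3.42, 2.70 and 6.18 CPM without and 0.446, 0.538, 0.526 and 0.768 with TGF-beta. Of 11 other TOP messenger RNAs 4 rose, with a median of 0.41, among them Pabpc1 (0.41 ± 0.08), Btf3 (0.33 ± 0.11) and Hnrnpa1 (0.47 ± 0.16). Tpt1, a member of that list named after its value was seen, gave 0.01 ± 0.10. In the list of mTOR pathway and Myc regulators 6 of 34 rose and 6 fell, close to the shares of all genes. Lamtor3 (0.82 ± 0.07) and the translation repressor Eif4ebp1 (0.97 ± 0.13) rose and Sesn1, an inhibitor of mTOR, fell (-1.40 ± 0.20). Myc, named after its value was seen, was at 15.2, 17.7, 20.5 and 37.3 CPM without and 60.2, 80.0, 64.7 and 81.8 with TGF-beta (1.66 ± 0.27, adjusted p = 0.000286). Mycn, of the same family and also named after its value was seen, went the other way. It was at 5.23, 3.82, 5.96 and 5.27 CPM without and 1.06, 0.646, 1.52 and 1.35 with TGF-beta.

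**Figure D5:**
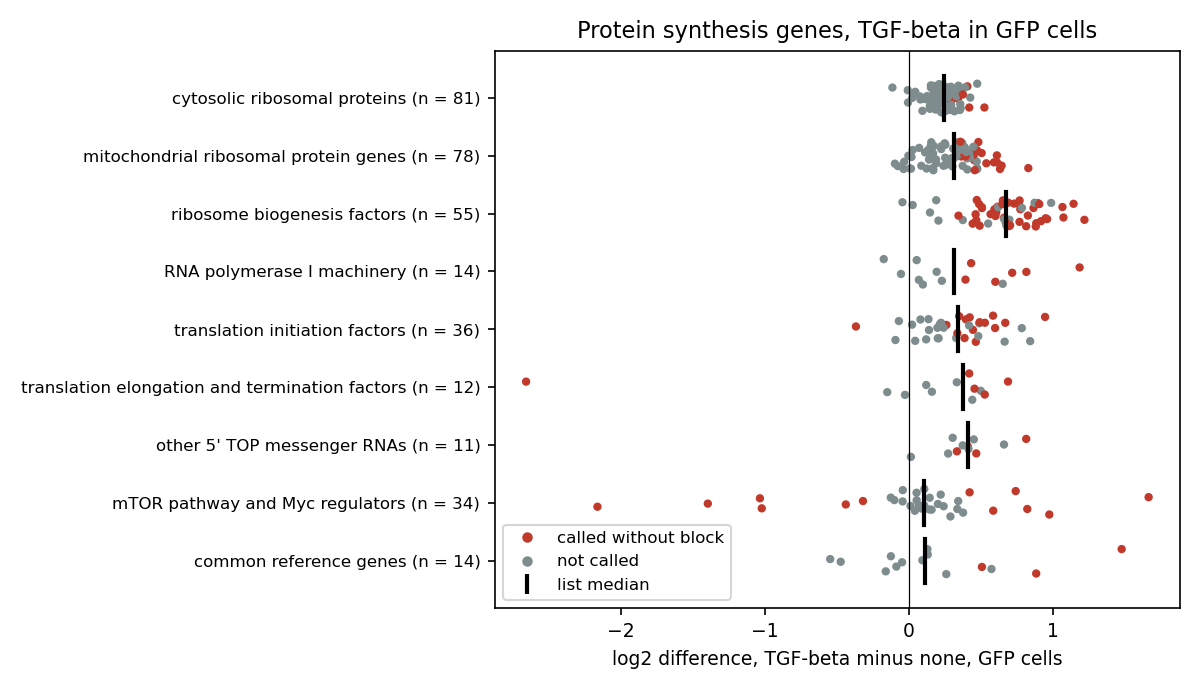
Log2 difference with TGF-beta in GFP cells for ribosomal protein genes and 8 lists of related genes; each point is a gene, red where it passed the test without the block, and the black bar is the list median. Ribosome biogenesis factors lie furthest to the right, with a median of 0.68 against 0.24 for the cytosolic ribosomal proteins.

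In Cre cells the same lists gave medians of 0.71 for biogenesis factors (43 of 55 rose), 0.31 for mitochondrial ribosomal proteins (21 of 78) and 0.35 for the RNA polymerase I machinery (6 of 14), against 14% of all genes called higher. Initiation factors had a median of 0.38, with 16 rising and 1 falling. Ribosomal proteins that the symbol rule missed, such as Rack1, Fau and Rps3a1, had medians of 0.24 in GFP and 0.34 in Cre cells, close to those of the members. Of these 9, 2 rose in each kind of cell, against 13.8% of all genes in GFP cells and 14% in Cre cells. In GFP cells Rack1, the scaffold protein of the small subunit, was among them (0.40 ± 0.12). Markers of other cell types moved with TGF-beta too. In GFP cells, to which the calls below refer, 13.8% of all genes were called higher without the block and 15.3% lower. Summed macrophage markers were at 588 to 1251 CPM of the library total in GFP cells and 340 to 796 with TGF-beta, with 0 of 7 called higher and 3 lower. Endothelial markers were at 31.4 to 44.3 and 12.7 to 22.9, and fibroblast markers at 28698 to 53111 and 24533 to 44648, where 7 of 11 fell and 0 rose without the block, Pdgfra, Tcf21 and Thy1 among those that fell. The fibroblast collagens Col1a1 (0.85 ± 0.36) and Col1a2 (0.25 ± 0.31), named after their values were seen, rose with the block only. Col3a1, a collagen of the same list and also named after its value was seen, went the other way. It was at 22192, 21210, 18451 and 7127 CPM without and 7825, 7704, 6561.5 and 2194 with TGF-beta. Of 5 pericyte markers 3 fell and Cspg4 rose (2.62 ± 0.30). Their part in the members' values was not tested.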

How the data were processed

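RNA was sequenced from cultured mouse cardiac fibroblasts in 16 libraries, 4 per group, made with NEBNext Ultra II reagents from DNase-treated Trizol extracts, as the labels' protocols state. What the authors deposited is 1 table of raw read counts per gene, whole numbers without normalization. FastQC 0.10.1, HTSeq 0.10.0 and the build mm39 (GRCm39) are named in the submitters' processing notes. Which aligner, annotation and strand setting were used is not given in the sources used here. Reads of near-identical, overlapping or antisense genes may therefore be misassigned. GENCODE M21, which belongs to the preceding build, gave symbols to 52081 identifiers and supplied biotypes and transcript lengths, and no coordinates were converted.

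Genes were kept with filterByExpr (minimum count 10, minimum total 15) and tested with edgeR 4.0.16 (limma 3.58.1, R 4.3.3), a quasi-likelihood fit of all 16 libraries with 1 mean per group and Benjamini-Hochberg adjustment over 15285 genes, called at an adjusted p under 0.05. SE is the log2 difference divided by the square root of F. Levels are TMM-scaled CPM, and differences within a preparation used log2(CPM + 0.5). Libraries with the same replicate number share a preparation code in their names. Their deviations from the group means correlated at 0.364 to 0.888 in 24 pairs (median 0.566), against a median of -0.13 for other pairs, so the fit with the replicate number as a block is given beside the unblocked one. No 2 libraries of a group agreed within sampling noise (chi-square per gene 7.24 to 217). Length and GC trends were removed by library-wise splines with 5 degrees of freedom. The splines were fitted with an intercept, so each library's mean deviation over genes was removed with the trends. Other alternatives were DESeq2 1.42.0, other size factors, other filters, fewer libraries and leaving out each library or preparation. The code was tested on simulated data.

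The members, lists and tests were chosen with earlier results of these data known. Members named were 22 of fixed interest by role, the 4 called members with the smallest adjusted p per comparison and fit (otherwise the 2 highest and 2 lowest above 10 CPM), the 5 most and 5 least abundant, and up to 3 called genes per related list. Rpl6, Rpl12, Rpl18, Rpl19, Rpl32, Rpl38, Rps12, Rps18, Rps20, Rps26, Fau, Rps3a1, Tpt1, Myc, Mycn, Col1a1, Col1a2 and Col3a1 fall outside this rule and were named after their values were seen. The rule also picks 2 genes that are not reported by name here, though counts and medians include them.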

Additional observations from a re-analysis of the deposited data

Results flagged for a closer look

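Of 152 groups of 4 libraries examined (37 named members with 4 groups each, and the 4 group shares), 1 held a library far from the other 3 by Dixon's test, where chance gives about 1 in 20. Rps27a was at 522.02 CPM in GFP with TGF-beta replicate 4, above the 435 to 445 CPM of the other 3. The log2 difference of Rps27a with TGF-beta in GFP cells was 0.33, and 0.27 without that library, and it was called in neither case without the block.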

How the results depend on the processing

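Counts of called members depended strongly on the fit, while their direction did not. Percentages in brackets are the shares of all genes called higher in that fit. A count without one shows only how it moved with the setting. For TGF-beta in GFP cells, with 8 called (13.8%), the replicate block gave 39 (22.6%), the block with GC and length correction 56 (34.3%), and that correction alone 38. The count was 1 with no filter on low counts, 2 with the stricter filter of 5 CPM in 4 libraries, and 22 from only the libraries compared. The block without the 3 annotated pseudogenes gave 38. Leaving out preparations gave 0 to 11, single libraries 1 to 8, and the block without replicates 1 to 4 gave 24, 31, 34 and 40. For TGF-beta in Cre cells, with 13 called (14%), the corresponding counts were 49 (25.2%), 51 (34.8%) and 36, then 2, 7 and 0, and 48 without pseudogenes. Leaving out single libraries gave 2 to 47, the highest without Cre with TGF-beta replicate 3, preparations 0 to 11, and the block without replicates 1 to 4 gave 52, 11, 56 and 33. The cause of these changes was not tested. DESeq2 called 11 and 15 members. Every called member was higher in these settings. Counts for both Cre comparisons and for the difference of the responses were 0 in every setting. The block fits leaving out a preparation and the sets without pseudogenes were added after seeing the data.

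Medians over the members stayed above 0 in the settings run for both TGF-beta and both Cre comparisons. With TGF-beta they ran from 0.19 to 0.29 in GFP cells and 0.16 to 0.38 in Cre cells when a library or preparation was left out. That of the difference of the responses ran from -0.10 to 0.13. Rps27l in Cre cells reversed, at -0.0088 with block and correction and -0.016 with the correction alone. The share in GFP cells was 4.58% once the 10 most abundant other genes were taken out of the total. GC and length correction moved the median of all genes from -0.02 to 0.09 in GFP cells and from 0.02 to 0.11 in Cre cells, against which the members' values stand. Depth limited Rpl39l and Rpl32l, which rested on few counts.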
